A study of Mus musculus with 9 samples.

Results

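Interferon response genes were examined in mouse acute myeloid leukaemias initiated by MLL-AF9, an oncogenic fusion protein, with and without the histone methyltransferase Ezh2. The set was a list of 41 symbols, and a gene was a member when a probe set of the array carried that symbol alone, with the brightest probe set standing for genes that had several. On this rule 38 of the 41 symbols were measured, out of 20680 genes in all. Isg15 and Usp18 occurred only on probe sets shared with another gene, and Ifi27 was not found as a symbol.

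Gene expression was compared by microarray between 4 WT and 5 Ezh2-null leukaemias, 1 array each, described in the labels as biological replicates of secondary recipients on the background C57B/6. Cells bearing the retrovirus MLL-AF9-ires-GFP were transplanted, and pIpC was given to the primary recipients to switch on Cre. Marrow cells positive for both GFP, the mark of the retrovirus, and YFP, the mark of Cre activity, were sorted and passed to sublethally irradiated secondary recipients, whose leukaemic marrow was sorted for GFP and YFP again. Both genotypes therefore shared the fusion gene, the history of pIpC and Cre activity, and they differed by the loss of Ezh2, the enzyme of the Polycomb complex that methylates lysine in histone H3. pIpC is a synthetic double-stranded RNA that itself induces interferon, and the labels record it for the primary recipients only. The labels give neither the promoter that drives Cre nor the ages of the mice, nor the primary leukaemia behind each secondary recipient, so p-values measure the spread between these arrays.

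Type I interferons signal through the receptor chains Ifnar1 and Ifnar2 and the kinases Jak1 and Tyk2 to a complex that holds Stat2 and Irf9 and binds the interferon-stimulated response element in the promoters of target genes. Interferon gamma acts at the gamma-activated sequence, and in part by way of the transcription factor Irf1. The induced proteins sense foreign nucleic acid, block viral replication, degrade RNA and prepare peptides for MHC class I, and in marrow cells they are known to be set off by infection, by pIpC and by endogenous nucleic acids.

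The deletion and the make-up of the samples were checked first. The log2 intensity of Ezh2 was 10.50 ± 0.49 (SD, n = 4) in WT, and the 5 Ezh2-null arrays averaged 9.21 ± 0.18 (SD), without overlap (limma adjusted p = 0.0373). WT replicate 1 read 9.79, the other WT arrays 10.61 to 10.89 and the highest Ezh2-null array 9.36. Ezh2 passed in 11 of 19 alternatives, with an adjusted p of 0.00632 to 0.149 over them. Summed intensities of 6 marker lists were compared between arrays, list by list; all 9 listed neutrophil, 8 of 8 plasmacytoid dendritic cell, 9 of 9 T and NK cell, 9 of 12 monocyte and macrophage, 5 of 7 B and plasma cell and 5 of 6 erythroid markers were measured. The monocyte and macrophage sums (7748 to 11480 in WT, 7750 to 10130 in Ezh2-null arrays), the B and plasma cell sums (491.1 to 692.2 and 648.3 to 742.5) and the erythroid sums (439.4 to 809.2 and 491.7 to 643.6) overlapped between the genotypes. Single monocyte and macrophage markers did not all overlap, and 6 of the 9 had a positive and 3 a negative mean change. Without overlap, Ccr2 (-1.52 on the log2 scale) and Cd68 (-0.51) were lower in Ezh2-null arrays and the dim C1qa (0.38) was higher. Over all genes 5.90% did not overlap. WT replicates 3 and 4 stood apart. Their neutrophil sums were 28710 and 47520, while the other WT arrays had 102000 and 103200 and the Ezh2-null arrays 76700 to 128600, and all 9 neutrophil genes had a positive mean change. Plasmacytoid dendritic cell sums were 3224 and 3549 on those arrays, 8845 and 9121 on the other WT arrays and 4651 to 10090 on Ezh2-null arrays. Tcf4 and Runx2 made up most of this sum on every array, at 833.8 and 1299 of 3224 on WT replicate 3 for example. Sums of the 9 T and NK cell markers were 962.4 to 1445 in WT and 1672 to 1939 in Ezh2-null arrays, without overlap. This separation came with 1 gene, Nkg7 (194.4 to 582.4 in WT, 546.4 to 968 in Ezh2-null arrays), and the sums of the other 8 overlapped (744.9 to 1051 and 910.3 to 1138). The part of these marker levels in the results that follow was not tested, and in sorted bulk samples fewer cells of a type cannot be told apart from less RNA per cell.

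The interferon response genes did not move in a common direction with the loss of Ezh2. Of 38 measured members 19 had a positive and 19 a negative log2 change (Ezh2-null minus WT), and the median was 0.0052, beside 0.019 over all genes tested. Ifi27l2a, which encodes a small hydrophobic interferon-induced protein, fell by 1.22 on the log2 scale and was the only member to pass limma at a Benjamini-Hochberg adjusted p under 0.05 over all genes. None rose. Among all 20680 genes 0.498% passed, 0.290% higher and 0.208% lower. Without WT replicates 3 and 4 no member passed, 0.295% of all genes did, and the members' median was -0.116, beside -0.0197 over all genes. The result for the members is thus 1 lower gene, which passed in 11 of 19 alternatives, among otherwise mixed differences.

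Single members nevertheless differed between the genotypes at an unadjusted p under 0.05 in both directions. There were 13 of these among the 38 (34.2%), 7 higher and 6 lower in Ezh2-null arrays, beside 17.2% of all genes, 8.20% higher and 8.97% lower. Lack of overlap between the genotypes was found in 3 members, all lower, namely Ifi27l2a, Oas1a and Bst2. Over all genes the share was 5.90%, split into 3.03% higher and 2.87% lower. Few members had dim probe sets, with 5 of 38 below the 40th percentile of mean level, and they varied more over the 9 arrays, with a median SD of 0.35 on the log2 scale against 0.26 for all genes. Their median absolute log2 change was 0.33, against 0.18 for all genes.

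**Figure D1:**
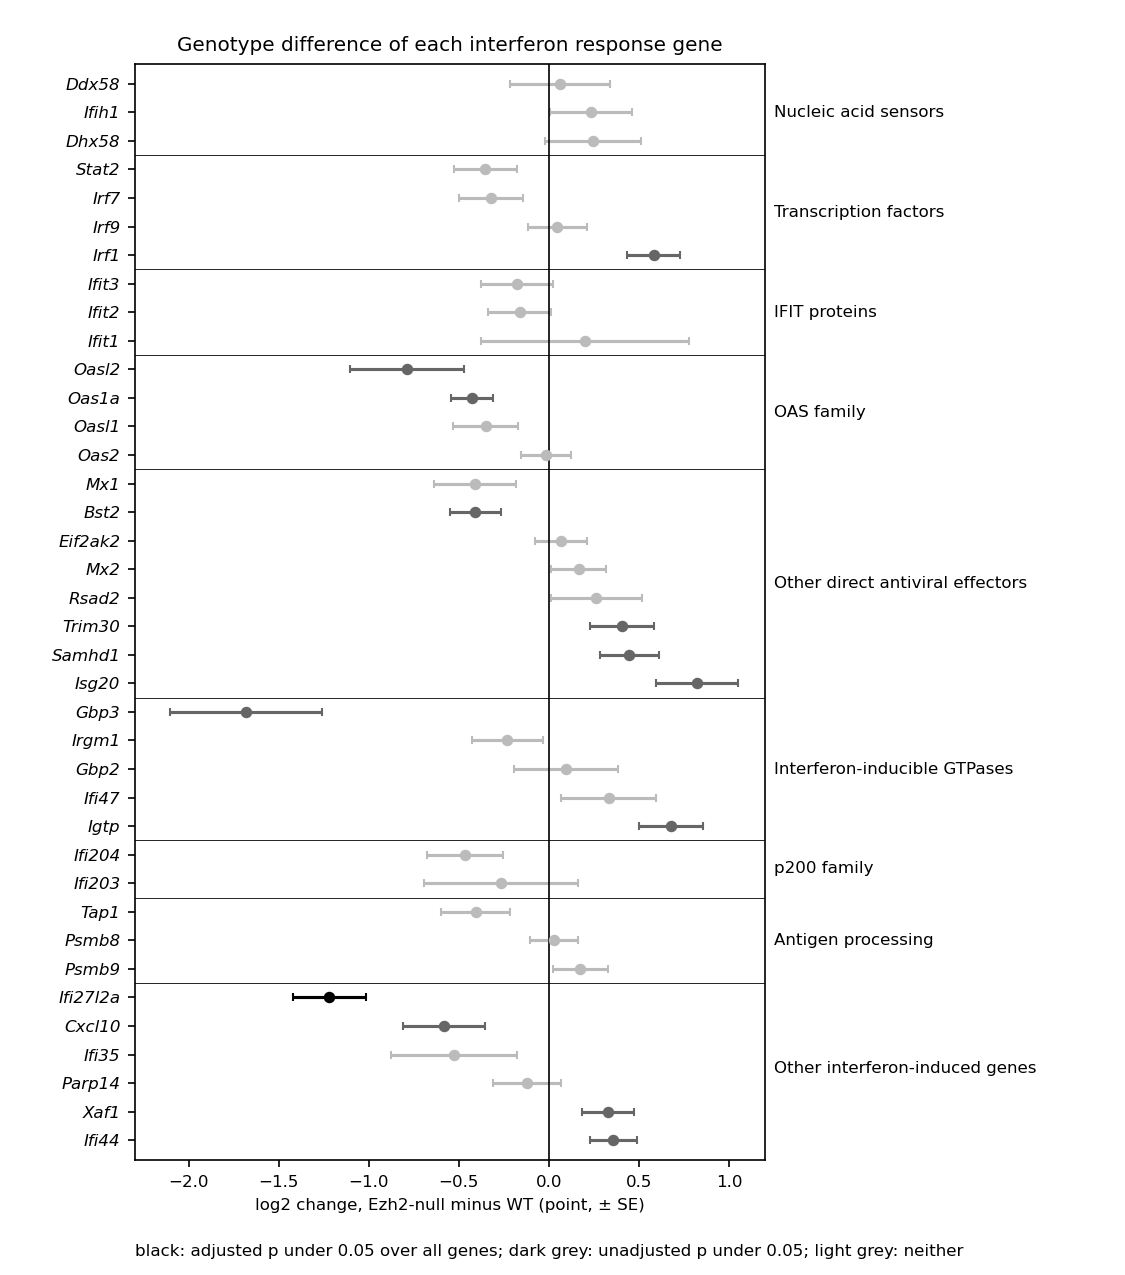
Log2 change (Ezh2-null minus WT, horizontal axis) of each of the 38 members with its standard error, grouped by role. Ifi27l2a (-1.22, black) passed the adjusted threshold, the 12 other members in dark grey had an unadjusted p under 0.05, and points lie on both sides of 0 in most role groups.

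Averaged over the members, the arrays of both genotypes overlapped. The mean deviation of the members from their own 9-array means was 0.15 and 0.12 on the first WT pair by number, -0.040 and -0.034 for WT replicates 3 and 4, between -0.017 and 0.024 on Ezh2-null replicates 1, 2, 3 and 5, and -0.17 on Ezh2-null replicate 4. WT replicate 1 held the highest value of 11 members (28.9%, beside 14.9% of all genes), and Ezh2-null replicate 4 held the lowest value of 8 (21.1%, beside 8.91% of all genes). The members thus varied from leukaemia to leukaemia within each genotype.

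**Figure D2:**
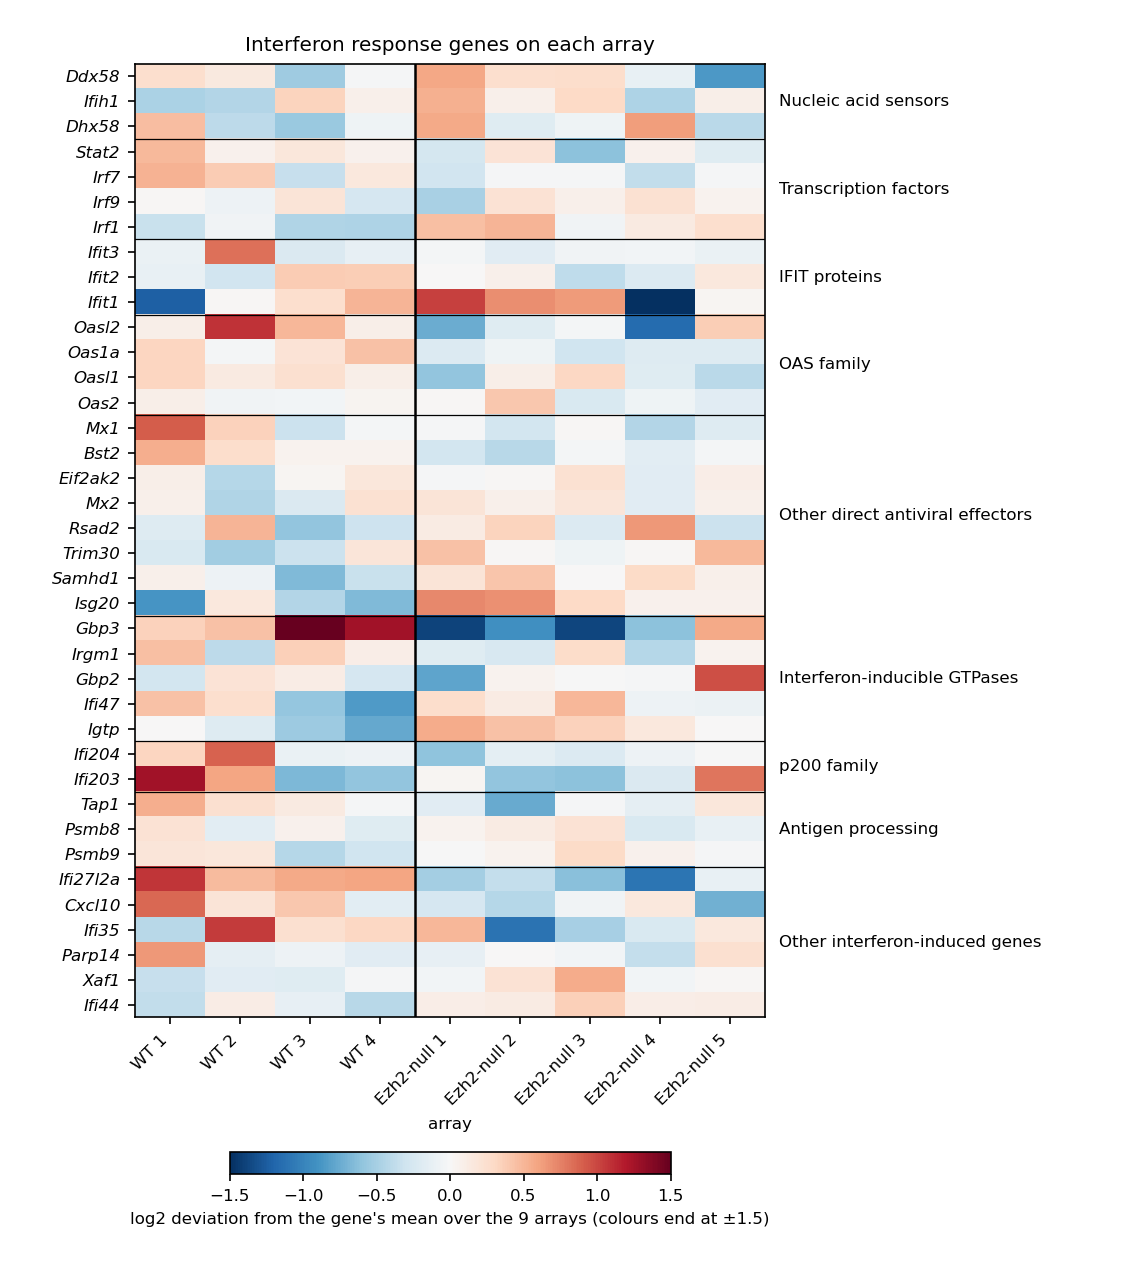
Log2 deviation of each member (rows, grouped by role) from its own mean over the 9 arrays (columns, WT left of the line and Ezh2-null right of it). Ifi27l2a was above its mean on all 4 WT arrays and below it on all 5 Ezh2-null arrays, while Ifit1 reached 8.81 on Ezh2-null replicate 1 and 5.86 on Ezh2-null replicate 4.

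Promoter windows from RefSeq (GRCm38.p6, 250 bases before to 50 after a start site) were found for 31 of the 38 members and searched on both strands for the core of the interferon-stimulated response element (ISRE), which is GAAA, any 2 bases and GAAA again, and for TTCNNNGAA, the gamma-activated sequence (GAS), which reads the same on both strands. Members without a window were Dhx58, Oas2, Mx1, Mx2, Ifi204, Parp14 and Ifi27l2a, the member that passed. Matches of both motifs can overlap each other. The ISRE core occurred in a window of 16 of the 31 members (51.6%), beside 3.99% of all 27025 genes with a window, and the GAS in 10 (32.3%), beside 9.55%. Upstream stretches are shown for 4 members described with their values on every array, chosen because each holds an ISRE core while 3 had a lower and 1 a higher mean in Ezh2-null arrays. Capitals mark the matches.
Gbp3: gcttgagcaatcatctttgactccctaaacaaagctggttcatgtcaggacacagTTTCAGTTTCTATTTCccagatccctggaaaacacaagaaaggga
Oas1a: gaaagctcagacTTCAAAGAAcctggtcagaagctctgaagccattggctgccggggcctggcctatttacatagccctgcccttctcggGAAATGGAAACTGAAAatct
Bst2: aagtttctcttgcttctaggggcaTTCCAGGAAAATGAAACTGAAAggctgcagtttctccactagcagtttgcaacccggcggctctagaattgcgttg
Igtp: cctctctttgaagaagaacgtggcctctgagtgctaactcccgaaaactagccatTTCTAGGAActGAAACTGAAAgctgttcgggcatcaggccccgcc
The stretches are chr3:142559944-142560043 (plus strand) for Gbp3, chr5:120907526-120907635 (minus strand) for Oas1a, chr8:71537533-71537632 (minus strand) for Bst2 and chr11:58199456-58199555 (plus strand) for Igtp. In Gbp3 the capitals are 2 overlapping ISRE cores read on the opposite strand, and in Oas1a they are a GAS and, close to the start site, 2 overlapping ISRE cores. In Bst2 a GAS runs into 2 overlapping ISRE cores, and in Igtp a GAS and an ISRE core stand side by side.

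The change with genotype did not differ in an evident way between members with and without a match. The 16 members with an ISRE core had a median log2 change of -0.058, 8 positive and 8 negative, with Gbp3 at -1.68 and Igtp at 0.68 at the ends. The 15 without one had a median of 0.046, 9 positive and 6 negative. With a GAS the median of 10 members was 0.048, and without one that of 21 members was 0.046. Ifi27l2a had no window and is in none of these groups. No test was made of these differences, and a match of letters is not a bound site.

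**Figure D3:**
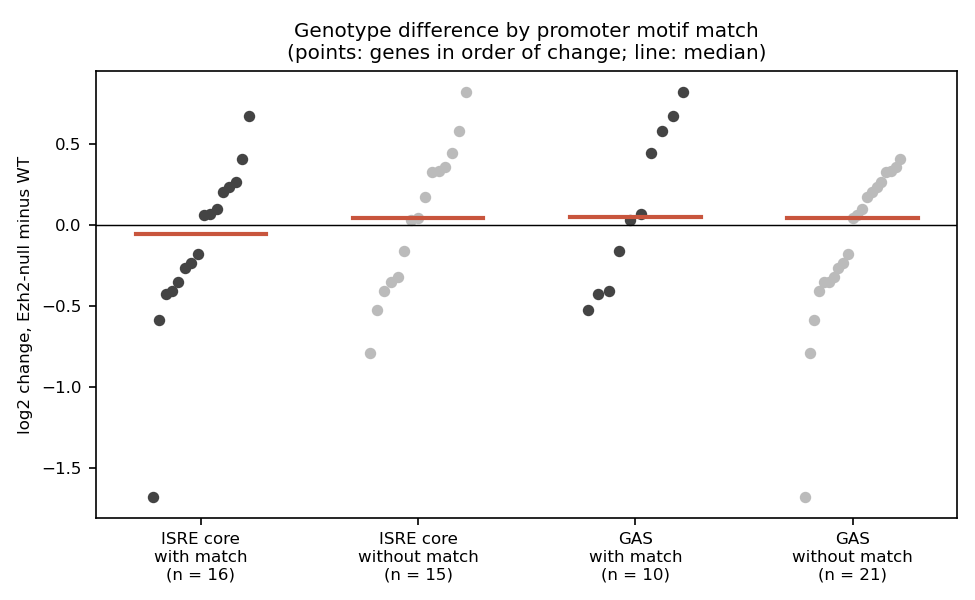
Log2 change (Ezh2-null minus WT, vertical axis) of the 31 members with a promoter window, split by a match of the ISRE core or of the GAS; lines are medians. Members with an ISRE core run from -1.68 to 0.68 around a median of -0.058, those without from -0.79 to 0.82 around 0.046. Ifi27l2a had no window and is not shown.

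The 3 sensors of cytosolic RNA had changes within the spread between arrays. Ifih1, which encodes MDA5 and recognises long double-stranded RNA, stood at 0.23 (SE 0.23, limma adjusted p = 0.633). Ddx58, which encodes RIG-I, stood at 0.06 (SE 0.28), and Dhx58, which encodes the regulatory helicase LGP2, at 0.25 (SE 0.27). Their adjusted p were 0.935 and 0.674. All 3 means were slightly higher in Ezh2-null arrays, but the sign of Ddx58 turned when WT replicate 3 or Ezh2-null replicate 1 was left out, to -0.10 and -0.08.

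Of the 4 transcription factor genes Irf1 differed most. Irf1 is itself induced by interferon gamma and activates genes of antigen presentation. Its log2 intensity was 9.60, 9.89, 9.49 and 9.47 on WT replicates 1 to 4 and 10.38, 10.45, 9.89, 10.07 and 10.19 on Ezh2-null replicates 1 to 5. WT replicate 2 and Ezh2-null replicate 3 read exactly the same and all other Ezh2-null arrays lay above all WT arrays. The change was 0.58 (SE 0.15, limma adjusted p = 0.103), or 1.50-fold, and it was 0.45 without WT replicates 3 and 4. The DNA-binding subunit gene Irf9 had a change of 0.05 (adjusted p = 0.917). Its partner Stat2 stood at -0.35 (adjusted p = 0.328) with a second probe set at -0.55, and Irf7, the amplifier of type I interferon production, at -0.32 (adjusted p = 0.384). Irf1 and Irf9 thus had a positive change and Stat2 and Irf7 a negative one, and none passed.

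The IFIT proteins bind viral RNA and hinder its translation. Ifit1 varied more than every other member except Gbp3, with an SD of 0.97 over the 9 arrays. Its log2 intensity was 6.57, 7.81, 8.05 and 8.30 on WT replicates 1 to 4 and 8.81, 8.48, 8.43, 5.86 and 7.82 on Ezh2-null replicates 1 to 5. WT replicate 1 and Ezh2-null replicate 4 were low, Ezh2-null replicate 1 was highest, and the genotypes overlapped widely. The change was 0.20 (SE 0.58, limma adjusted p = 0.890). Ifit2 (-0.16, adjusted p = 0.672) and Ifit3 (-0.18, adjusted p = 0.682), which lie on chromosome 19 as Ifit1 does, did not follow its pattern, since Ezh2-null replicate 4 read 8.56 and 9.39 for them, within the range of the other arrays.

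The OAS enzymes make short oligoadenylates that activate RNase L, and the OAS-like proteins modulate RNA sensing. All 4 measured members had a negative change, although Oas2 (-0.018, limma adjusted p = 0.962) turned positive in the batch-adjusted table (0.0051) and after quantile normalization (0.018). The family as a whole did not share that sign. Outside the members, Oas3 (0.40, adjusted p = 0.376) and Oas1c (0.27, adjusted p = 0.707) had a positive change. Oas1b had a slightly negative one (-0.083, adjusted p = 0.812). Oas1a read 10.21, 9.87, 10.10 and 10.33 (log2 intensity) on WT replicates 1 to 4 and 9.69, 9.83, 9.59, 9.70 and 9.70 on Ezh2-null replicates 1 to 5. Every Ezh2-null array lay below every WT array, by a small margin. Oas1a had a change of -0.43 (SE 0.12, adjusted p = 0.123), or 1.34-fold lower, and -0.34 without WT replicates 3 and 4. Oasl2 read 8.38, 9.39, 8.80 and 8.38 (log2 intensity) on WT replicates 1 to 4 and 7.55, 8.11, 8.27, 7.14 and 8.67 on Ezh2-null replicates 1 to 5. Oasl2 thus ranged over a wide span in both genotypes, with WT replicate 2 highest and Ezh2-null replicate 4 lowest. Its change was -0.79 (SE 0.32, adjusted p = 0.244), and the dim gene Oasl1 had a change of -0.35 (adjusted p = 0.342). Members of the OAS family are similar in sequence, so their probe sets may share signal.

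Other antiviral effectors split in both directions. Isg20, a 3'-to-5' exonuclease that degrades viral RNA, had the largest positive change of all members. Isg20 read 7.77, 8.81, 8.21 and 8.0 (log2 intensity) on WT replicates 1 to 4 and 9.38, 9.35, 8.96, 8.72 and 8.72 on Ezh2-null replicates 1 to 5. WT replicate 2 lay among the lower Ezh2-null arrays and the other WT arrays lay below all of them. The change was 0.82 (SE 0.23, limma adjusted p = 0.125), or 1.77-fold higher, and without WT replicate 2 it was 1.03 with an adjusted p of 0.0443, in a range of 0.0443 to 0.407 over the alternatives.

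Samhd1, which hydrolyses deoxynucleoside triphosphates and so starves reverse transcription, had the brightest probe set. Across WT replicates 1 to 4 the log2 level was 12.13, 11.98, 11.39 and 11.72, and across Ezh2-null replicates 1 to 5 it was 12.25, 12.47, 12.06, 12.34 and 12.13. WT replicates 3 and 4 were lowest and WT replicate 1 reached into the Ezh2-null range. The change was 0.45 (SE 0.16, limma adjusted p = 0.203), all 4 further probe sets were also positive, and without WT replicates 3 and 4 the change was 0.19. Those are the arrays with the low neutrophil marker sums given above, whose part in this change was not tested. Trim30, a ubiquitin ligase family member that restrains NF-kB signalling, had a change of 0.41 (adjusted p = 0.273) with a second probe set at 0.23 and one shared with AI451617 at 0.41 (adjusted p = 0.340 over all probe sets).

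Bst2, or tetherin, holds budding virions at the cell surface and is also a surface marker of plasmacytoid dendritic cells. Across WT replicates 1 to 4 the log2 level was 9.69, 9.41, 9.19 and 9.19, and across Ezh2-null replicates 1 to 5 it was 8.87, 8.72, 9.12, 8.98 and 9.12. The 4 WT arrays lay above all 5 Ezh2-null arrays, the nearest being WT replicate 3 at 9.19 and Ezh2-null replicates 3 and 5 at 9.12. The change was -0.41 (SE 0.14, limma adjusted p = 0.185), or 1.33-fold lower, and -0.59 without WT replicates 3 and 4. Of the 8 plasmacytoid dendritic cell markers 5 had a positive and 3 a negative change, with a median of 0.077. The negative ones were Cox6a2 (-0.63), Klk1 (-0.39) and Siglech (-0.18). The positive ones were Tcf4 (0.38), Ccr9 (0.30), Ly6d (0.091), Cd209d (0.084) and Runx2 (0.069). The markers thus differed among themselves, and their part in the level of Bst2 was not tested.

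The remaining effectors had small or uneven differences. Eif2ak2, the double-stranded RNA-activated kinase PKR that stops translation, was bright and even, with a change of 0.07 (SE 0.14, limma adjusted p = 0.847) and further probe sets at 0.0045 and 0.032. Rsad2, or viperin, stood at 0.26 (adjusted p = 0.627) with further probe sets at 0.20 and 0.21. Of the dynamin-like GTPase genes on chromosome 16, Mx1 stood at -0.41 (adjusted p = 0.380) and the dim gene Mx2 at 0.16 (adjusted p = 0.616). Mx1 read 9.08 on WT replicate 1 and between 7.73 and 8.52 on all other arrays, so WT replicate 1 stood above the rest.

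The interferon-inducible GTPases, which attack the vacuoles of intracellular pathogens, held large differences of both signs. Gbp3, a guanylate-binding protein gene, had the largest absolute change and the largest spread of all members. Its log2 intensity was 8.92, 9.01, 10.29 and 9.83 on WT replicates 1 to 4 and 7.19, 7.66, 7.20, 7.96 and 9.14 on Ezh2-null replicates 1 to 5. WT replicates 3 and 4 were highest, Ezh2-null replicates 1 and 3 lowest, and Ezh2-null replicate 5 lay above WT replicates 1 and 2. The change was -1.68 (SE 0.42, limma adjusted p = 0.102), or 3.21-fold lower. Without Ezh2-null replicate 5 it was -2.01 with an adjusted p of 0.0257, and without WT replicates 3 and 4 it was -1.14 with an adjusted p of 0.415, the ends of the range over the alternatives. Its neighbour in family and on chromosome 3, Gbp2, was dim and stood at 0.10 (adjusted p = 0.897).

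Igtp, which encodes the immunity-related GTPase Irgm3, differed in the opposite direction. The WT arrays, in the order of their replicate numbers, gave log2 intensities of 8.95, 8.75, 8.41 and 8.18, and the Ezh2-null arrays gave 9.51, 9.38, 9.29, 9.11 and 8.95. The highest WT array and the lowest Ezh2-null array read exactly the same, and all other Ezh2-null arrays lay above all WT arrays. The change was 0.68 (SE 0.18, limma adjusted p = 0.113), or 1.60-fold higher, and 0.40 without WT replicates 3 and 4, which were its lowest arrays. Irgm1 and Ifi47, related GTPase genes that also lie on chromosome 11, stood at -0.23 (adjusted p = 0.580) and 0.33 (adjusted p = 0.552).

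**Figure D4:**
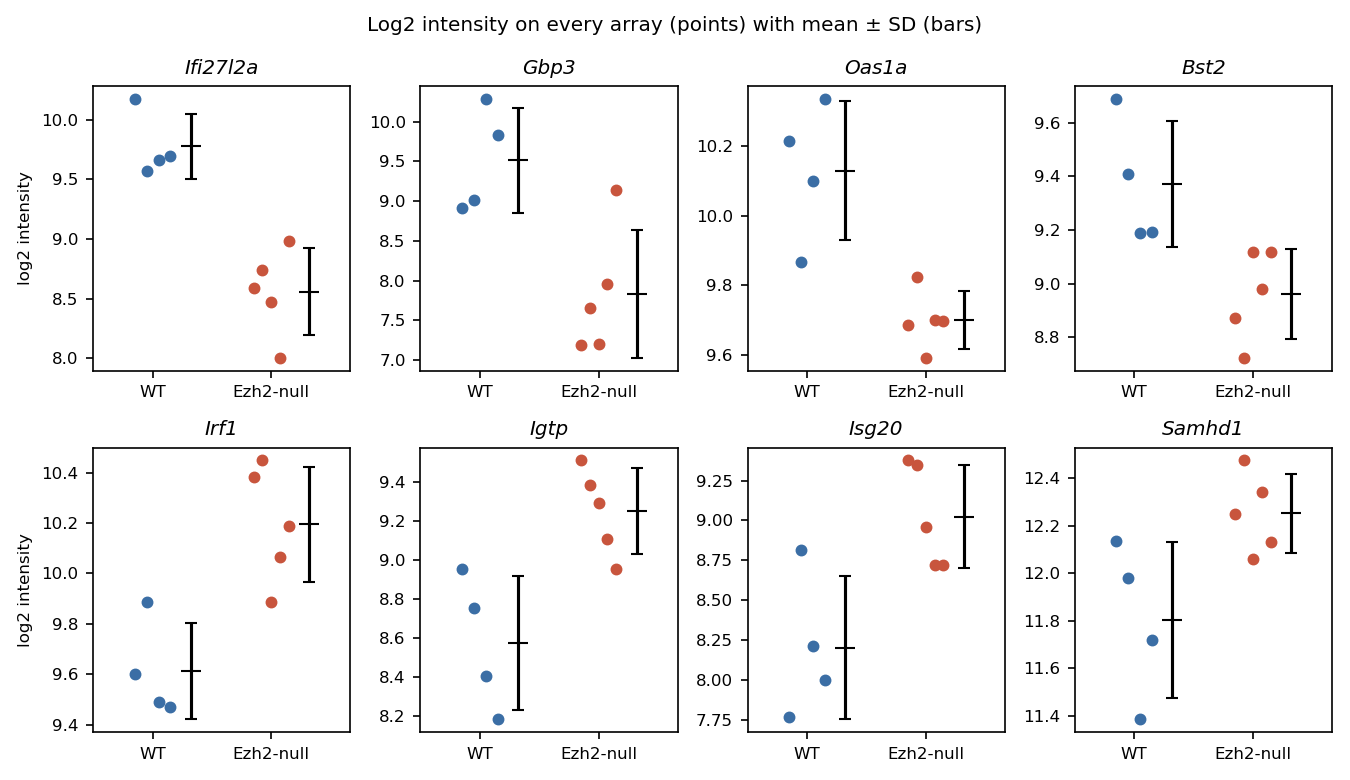
Log2 intensity (vertical axes, each with its own range) of 8 members on each array, WT in blue and Ezh2-null in red, with mean ± SD in black (n = 4 and n = 5). Ifi27l2a, Oas1a and Bst2 separate the genotypes with WT above, Gbp3 separates them except for Ezh2-null replicate 5, and Irf1, Igtp, Isg20 and Samhd1 lie higher in Ezh2-null arrays with shared or overlapping values.

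The p200 proteins bind DNA, and Ifi204 acts as a DNA sensor and a regulator of myeloid differentiation. Ifi203 read 11.76, 11.10, 9.82 and 9.91 (log2 intensity) on WT replicates 1 to 4 and 10.53, 9.91, 9.89, 10.28 and 11.30 on Ezh2-null replicates 1 to 5. WT replicates 1 and 2 and Ezh2-null replicate 5 were high, and WT replicates 3 and 4 read close to the lowest Ezh2-null arrays. Plasmacytoid dendritic cell markers had their highest sums on these same 3 arrays (8845 to 10090, against 3224 to 5759 on the other 6). Most of the sum was Tcf4 and Runx2 on every array, at 3751 and 3532 of 9121 on WT replicate 1 for example. On Ezh2-null replicate 5 most of the sum of 10090 was likewise Tcf4 (6273) and Runx2 (2557). Siglech, Cox6a2, Klk1 and Cd209d lay there within the range of the other Ezh2-null arrays. Among Ezh2-null arrays Ccr9 was lowest on it and Ly6d highest. The part of these markers in the levels of Ifi203 was not tested. The change of Ifi203 was -0.27 (SE 0.43, limma adjusted p = 0.791). Ifi204 stood at -0.47 (adjusted p = 0.295) and its dimmer probe set at -0.77, which did not pass among all probe sets either (adjusted p = 0.124). A probe set shared by 6 genes of this family stood at -0.19 (adjusted p = 0.739).

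The antigen-processing genes had bright probe sets and small differences. Psmb8 and Psmb9 encode catalytic subunits of the immunoproteasome, and Tap1 encodes a chain of the peptide transporter; all 3 lie in the major histocompatibility complex on chromosome 17. Psmb8 read 12.10, 11.73, 11.95 and 11.70 (log2 intensity) on WT replicates 1 to 4 and 11.94, 12.02, 12.11, 11.66 and 11.78 on Ezh2-null replicates 1 to 5. Psmb9 read 12.14, 12.12, 11.52 and 11.65 (log2 intensity) on WT replicates 1 to 4 and 11.96, 12.01, 12.24, 12.01 and 11.94 on Ezh2-null replicates 1 to 5. The arrays of both genotypes overlapped for both subunits, and their changes were 0.028 (SE 0.13, limma adjusted p = 0.938) and 0.17 (SE 0.15, adjusted p = 0.598). Tap1 stood at -0.41 (SE 0.19, adjusted p = 0.305), while its 3 dimmer probe sets stood at 0.061, -0.10 and 0.042.

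Ifi27l2a was the member that passed. Its log2 intensity was 10.17, 9.57, 9.66 and 9.69 on WT replicates 1 to 4 and 8.59, 8.74, 8.47, 8.002 and 8.98 on Ezh2-null replicates 1 to 5. The lowest WT array, at 9.57, and the highest Ezh2-null array, at 8.98, were well apart. The mean level was 9.78 ± 0.27 for WT (SD, n = 4), that of Ezh2-null leukaemias was 8.56 ± 0.36 (SD, n = 5), and the change was -1.22 (SE 0.20, limma adjusted p = 0.0373), or 2.33-fold lower. It was -1.18 in the batch-adjusted table (adjusted p = 0.0261) and passed in 11 of 19 alternatives. The adjusted p rose to 0.0525 after quantile normalization, to 0.0886 and 0.103 without WT replicates 3 or 4, to 0.117 without both, and to 0.0791, 0.0864, 0.0841 and 0.0598 without Ezh2-null replicates 1, 2, 3 or 4, while the change stayed between -1.33 and -1.08 over all alternatives. The gene had a single probe set, and related genes of the Ifi27 family are close in sequence, so part of the signal may be theirs.

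None of the 5 other induced genes passed, and 3 of them also had a negative change. Ifi35 read 10.05, 11.52, 10.70 and 10.78 (log2 intensity) on WT replicates 1 to 4 and 10.96, 9.37, 9.97, 10.25 and 10.63 on Ezh2-null replicates 1 to 5. Ifi35, a modulator of RIG-I signalling, was thus highest on WT replicate 2 and lowest on Ezh2-null replicate 2, with overlap between the genotypes. Its change was -0.53 (SE 0.35, limma adjusted p = 0.470). Cxcl10, the chemokine that draws in T cells, was dim and stood at -0.58 (SE 0.23, adjusted p = 0.232), and the ADP-ribosyltransferase gene Parp14 stood at -0.12 (adjusted p = 0.780). Xaf1, a proapoptotic antagonist of XIAP, stood at 0.33 (SE 0.14, adjusted p = 0.284) on its bright probe set and at -0.70 on its dim one, the only member with an unadjusted p under 0.05 whose second probe set had the opposite sign. Ifi44 stood at 0.36 (adjusted p = 0.207) at the 3.72 percentile of level, where signal and background are hard to separate.

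The 2 list genes measured only on shared probe sets did not pass either. The probe set of Isg15, the ubiquitin-like modifier, is shared with Gm9706 and had a log2 change of -0.15 (SE 0.27, limma adjusted p = 0.817 over all probe sets). That of Usp18, the protease that removes ISG15 and damps receptor signalling, is shared with LOC100048346 and had a change of -0.98 (SE 0.46, adjusted p = 0.336). On it WT replicates 1 and 2 read 8.57 and 7.47, the other WT arrays 6.48 and 6.41, and Ezh2-null arrays 5.26 to 6.85, so WT replicates 1 and 2 lay above the Ezh2-null range and the other WT arrays within it.

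Where each of the 64 probe sets of the members was tested by itself, 1 passed, beside 0.402% of all 45037 probe sets. Of the 26 further probe sets of 15 members, 20 had the sign of the brightest one and 6 the opposite sign. The opposite signs were at dimmer probe sets of Ddx58 (-0.16), Dhx58 (-0.21), Ifi35 (0.056), Xaf1 (-0.70) and Tap1 (0.061 and 0.042).

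Genes around the members were taken from 7 lists of the interferon pathway, which held 121 measured genes of 142 and a median log2 change of 0.031. Trim5 alone passed, beside 0.498% of all genes. An unadjusted p under 0.05 was found for 22 (18.2%), 16 higher and 6 lower, which is close to the 17.2% of all genes (8.20% higher and 8.97% lower). Trim5, a gene of the TRIM family whose primate counterpart restricts retroviruses, rose 2.28-fold. Its log2 intensity was 8.41, 8.57, 8.90 and 9.08 on WT replicates 1 to 4 and 9.92, 10.003, 9.83, 9.81 and 10.12 on Ezh2-null replicates 1 to 5. The genotypes did not overlap, and the change was 1.19 (SE 0.15, limma adjusted p = 0.0135). It passed in 17 of 19 alternatives and had an adjusted p of 0.0504 without Ezh2-null replicate 2, in a range of 0.00526 to 0.0551 over the alternatives. Ddx60, a helicase gene that aids RIG-I signalling, was singled out after its values were seen. It stood at 1.89 (SE 0.35, adjusted p = 0.0557), with WT arrays between 7.81 and 8.97 and Ezh2-null arrays between 9.08 and 10.92. Without WT replicate 1 its adjusted p was 0.0387, and without Ezh2-null replicate 5 it was 0.0121, in a range of 0.0121 to 0.217 over the alternatives.

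The interferon genes themselves gave no call. Of 16 listed 8 were measured, none had an unadjusted p under 0.05, and the median change was 0.071. Ifna5 (0.31, limma adjusted p = 0.292) and Ifna1 (0.42, adjusted p = 0.351) had the smallest p. Ifnb1 read 5.81 ± 0.18 in WT (SD, n = 4) and averaged 5.75 ± 0.25 on the Ezh2-null side (SD, n = 5), at a level where the probe set may show background alone.

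Of 11 genes of the receptors and their signalling chain, 9 had a positive and 2 a negative change, beside 53.3% positive over all genes. None passed, and the median change was 0.27, beside 0.019 over all genes. An unadjusted p under 0.05 was found for 2 (18.2%), both higher, beside 17.2% of all genes, 8.20% higher. The receptor chain genes Ifnar1 and Ifnar2 stood at -0.33 (limma adjusted p = 0.467) and 0.15 (adjusted p = 0.571). Jak1, the kinase of both receptors, stood at 0.54 (adjusted p = 0.195).

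Among 18 sensors and adaptors upstream of interferon none passed and 1 had an unadjusted p under 0.05, with a median of 0.036. This was Tmem173, which encodes the adaptor STING, at -0.71 (SE 0.27, limma adjusted p = 0.212), and next was the sensor gene Zbp1 at 0.36 (adjusted p = 0.340). None of 6 other interferon regulatory factor genes had an unadjusted p under 0.05. Irf8, which directs monocyte and dendritic cell development, stood at -0.015 (adjusted p = 0.983), Irf3 at -0.30 (adjusted p = 0.378) and Irf4 at -0.70 (adjusted p = 0.549). Of 14 brakes on signalling none passed and 1, Socs1, had an unadjusted p under 0.05, at 0.33 (adjusted p = 0.198). The phosphatase gene Ptpn6 stood at 0.23 (adjusted p = 0.301), and the median of the list was 0.010.

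Further MHC class I genes had a median change of -0.099 over 17 measured of 19 listed, with none passing. At an unadjusted p under 0.05 there were 4 (23.5%), 2 higher and 2 lower, beside 17.2% of all genes. The change was negative for 13 and positive for 4 (23.5%, beside 53.3% of all genes). H2-Q7 at -1.54 (limma adjusted p = 0.294) and Nlrc5 at -1.06 (adjusted p = 0.362) had the largest changes, with overlap between the genotypes. Psme1, a subunit of the proteasome activator that works with the immunoproteasome, stood at 0.34 (limma adjusted p = 0.137), and the chaperone gene Canx at -0.35 (adjusted p = 0.190). The 50 measured of 58 further interferon-induced genes had a median of 0.087, with 15 (30%) at an unadjusted p under 0.05, 12 higher and 3 lower, beside 17.2% of all genes, 8.20% higher and 8.97% lower.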

How the data were processed

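Gene expression was measured on 9 arrays, 4 WT and 5 Ezh2-null, with group and replicate number from the titles. RNA was amplified over the whole transcriptome before biotin labelling, per the labels' protocols. RMA, the robust multi-array average, is named by the submitters' processing notes. Each probe set has 1 linear intensity per array in the table the authors deposited; that the authors undid the log2 step of RMA is read from the range of the numbers. Another deposited table, corrected with ComBat jointly with a further series per the file headers, also holds linear intensities. It supplied the gene symbols and served as an alternative, with its 7 columns of other samples unused and 2 values below a floor of 1 set to it. Detection calls were not used here, and the number of arrays limits the precision.

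The array has 45101 probe sets, and 64 controls, 5820 with no gene and 1399 with more than 1 were not used for the genes. The brightest probe set by mean log2 stood for each of 20680 genes. Log2 intensities were compared with limma 3.58.1 in R 4.3.3 by a model of genotype alone, whose two-sided p-values were adjusted after Benjamini and Hochberg across all 20680 genes (threshold 0.05). The procedure was tested on simulated data.

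The members, the lists and the alternatives were chosen with earlier results of these data known. Every member is reported. Values on every array are given for members that passed, those without overlap, the 8 with the smallest p, the 6 with the largest SD and the 4 brightest, and probe sets of opposite sign are named where 1 had an unadjusted p under 0.05. Of each pathway list the genes that passed, or else the 2 with the smallest p, are named, and Ifnar1, Ifnar2 and Irf8 in any case, with 1 gene that the rule names not reported here. Other genes named were chosen after their values were seen. Alternatives were the batch-adjusted table, dropping genes under the 40th percentile of level, the mean of all probe sets, every probe set on its own, quantile normalization, centring on medians, array weights, robust variance with an intensity trend, a block on the replicate number, each array left out in turn, WT replicates 3 and 4 left out together, and a threshold of 0.1.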

Additional observations from a re-analysis of the deposited data

Results flagged for a closer look

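Within each genotype every member was examined for 1 array far from the rest, 76 groups in all, of which chance flags about 1 in 20. There were 5 such arrays, none in the member that passed. Ifit3 read 10.26 on WT replicate 2, with the next WT array at 9.34. Parp14 read 9.65 on WT replicate 1, with the next at 8.92. Irf9 read 7.86 on Ezh2-null replicate 1, below the next lowest Ezh2-null array at 8.40. Psmb9 read 12.24 on Ezh2-null replicate 3, above the next at 12.01. Ifi44 read 4.59 on Ezh2-null replicate 3, above the next at 4.36, at a level near the bottom of the array's range.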

How the results depend on the processing

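The count of members that passed was 1 as reported. It was 0 after quantile normalization, where Ifi27l2a stood at -1.15 (adjusted p = 0.0525), and 0 without WT replicates 3 and 4, 2 with the replicate block (Gbp3 and Ifi27l2a) and 6 with array weights (Irf1, Oas1a, Isg20, Gbp3, Igtp and Ifi27l2a), where 4.87% of all genes passed. Leaving out 1 array gave 0 to 2 members, with 0 without WT replicate 3 or 4 or Ezh2-null replicates 1 to 4, and 2 without WT replicate 2 or Ezh2-null replicate 5. No WT array has the number of Ezh2-null replicate 5, so with the replicate block that array does not bear on the genotype difference. The changes with the block are thus those without Ezh2-null replicate 5, and these 2 alternatives are not independent. The count over all genes was 103 as reported, 202 in the batch-adjusted table, 1007 with array weights, 61 without WT replicates 3 and 4, 488 at an adjusted p under 0.1, and 17 (without WT replicate 4) to 330 (without WT replicate 2) with 1 array left out. The members' median was -0.116 without WT replicates 3 and 4, beside -0.0197 over all genes, and ran from -0.062 to 0.042 with 1 array left out. The cause of these shifts was not tested. Deviations of same-numbered arrays had correlations of -0.045, 0.086, 0.13 and -0.14. Differently numbered arrays were not compared with these, so whether the replicate numbers pair the arrays cannot be decided. With the replicate block Trim5 had a limma adjusted p of 0.0551.

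No gene that passed changed sign. Of 56 genes followed singly, 17 that did not pass changed sign somewhere. Without WT replicates 3 and 4 these were Ddx58 (-0.18), Ifit2 (0.12), Rsad2 (-0.041), Ifi47 (-0.19), Psmb8 (-0.018) and Psmb9 (-0.099). In the batch-adjusted table they were Oas2 (0.0051) and Eif2ak2 (-3.5e-05), and with the mean of all probe sets Xaf1 (-0.19), Ifnar2 (-0.14) and Irf8 (0.047). With quantile normalization Oas2 was at 0.018 and Irf8 at 0.062, with array weights Ifit1 at -0.081, Oas2 at 0.0015, Ifi203 at 0.094 and Irf8 at 0.17, and with the replicate block Oas2 at 0.024 and Gbp2 at -0.14. With 1 array left out the ranges of those that changed sign were Ifit1 -0.17 to 0.71, Oas2 -0.12 to 0.037, Ifi203 -0.54 to 0.11, Parp14 -0.20 to 0.072, Irf8 -0.22 to 0.20, Ifit3 -0.28 to 0.065, Eif2ak2 -0.062 to 0.14, Psmb8 -0.028 to 0.11, Ddx58 -0.10 to 0.28, Irf9 -0.028 to 0.17 and Gbp2 -0.14 to 0.30. The dim probe sets of Ifi44, Mx2, Oasl1, Gbp2 and Cxcl10 limit what can be said of those genes.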
